A study of Mus musculus with 4 samples.

Results

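Transcripts of 10 genes at the core of NF-kB signalling were measured in mouse cells treated with diethyl maleate: the subunits Nfkb1, Nfkb2, Rela and Relb, the cytoplasmic IkB proteins Nfkbia, Nfkbib and Nfkbie, the nuclear IkB proteins Nfkbiz and Bcl3, and the ubiquitin-editing enzyme A20, encoded by Tnfaip3. Probes were assigned to a gene where their accession was a RefSeq transcript of that gene. This gave probes for 9 of the 10 genes, out of 32301 genes or unnamed transcripts on the array, and no probe carried an accession of Nfkb1, which was not analysed here. Of the 9, all were well above background on all 4 arrays, so the filter on dim probes removed none of them. The 6 inhibitors and the 3 subunits with a probe were compared with each other and with the 15537 genes tested.

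The samples were Hepa1c1c7 cells, a line grown from a mouse hepatoma, although the labelled RNA extraction protocol names liver as its material. Cells in 2 samples had received diethyl maleate (DEM) at 100 µM for 6 hours, and those in the other 2 had received dimethyl sulfoxide (DMSO), the solvent, for the same 6 hours. DEM is an electrophile that consumes glutathione and that the series' title names as an activator of the transcription factor NRF2. All 4 samples come from 1 line, and no source used here states that the samples of a group came from separate cultures. The p-values therefore cover only how far these samples scatter, which may be technical scatter. RNA levels were read in 1 colour on Agilent arrays. All 4 arrays lay on 1 slide, with the DEM and the DMSO arrays at different places on it, so place on the slide and treatment cannot be told apart.

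NF-kB is a family of dimeric transcription factors. In resting cells the dimers are held in the cytoplasm by IkB proteins. Signals from cytokine and pattern recognition receptors activate the IKK complex, which marks the IkB proteins for destruction by the proteasome and lets the dimers enter the nucleus. Several genes of the system, among them Nfkbia, Tnfaip3, Bcl3, Nfkb2 and Relb, are themselves transcribed under NF-kB, so that the pathway makes its own inhibitors. In liver cells the pathway is known for acute phase and survival responses.

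After DEM, transcripts of 4 of the 6 inhibitors fell, with log2 changes of −1.70 for Bcl3, −1.43 for Tnfaip3, −1.43 for Nfkbia and −1.12 for Nfkbie (limma, Benjamini-Hochberg adjusted p between 0.0325 and 0.0436, n = 2 arrays per group). The remaining inhibitors, Nfkbiz and Nfkbib, were not called, and neither were the subunits Relb, Nfkb2 and Rela. Across all genes tested 0.508% were called lower and 0.714% higher, or 1.22% in either direction. The 6 inhibitors had a median log2 change of −1.28 and the 3 subunits one of −0.47, against a median of −0.01 over all genes tested. RNA was taken from whole cultures, where fewer cells of a kind and less RNA per cell cannot be told apart.

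The RefSeq promoter windows, each from 250 bases before to 50 bases after an annotated start, are shown for 4 genes that fell, for Nfkb2, which had a smaller change, and for Nfkbib and Rela, whose intervals spanned 0. They let the DNA next to the starts be set beside the responses. RefSeq windows on build GRCm38.p6 matched 7 of the 10 genes, and those of Nfkb1, Relb and Nfkbiz were not used. Each sequence reads 5′ to 3′ along its gene, with matches to the kB consensus in capitals: on either strand, 3 G, a purine, any 2 bases, 2 pyrimidines and 2 C.
Nfkbia, chr12:55492598-55492897, minus strand: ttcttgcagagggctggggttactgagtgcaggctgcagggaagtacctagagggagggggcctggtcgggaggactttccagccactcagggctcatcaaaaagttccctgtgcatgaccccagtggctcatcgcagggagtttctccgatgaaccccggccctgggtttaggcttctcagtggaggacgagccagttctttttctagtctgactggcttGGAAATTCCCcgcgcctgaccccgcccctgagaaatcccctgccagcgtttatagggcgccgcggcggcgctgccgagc
Tnfaip3, the upstream of 2 annotated starts, chr10:19015361-19015660, minus strand: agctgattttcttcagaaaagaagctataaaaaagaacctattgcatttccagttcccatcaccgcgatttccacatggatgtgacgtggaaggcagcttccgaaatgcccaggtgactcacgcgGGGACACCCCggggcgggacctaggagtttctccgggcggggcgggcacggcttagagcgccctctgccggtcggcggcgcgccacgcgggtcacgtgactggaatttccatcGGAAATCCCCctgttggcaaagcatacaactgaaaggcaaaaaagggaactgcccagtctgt
Bcl3, chr7:19822706-19823005, minus strand: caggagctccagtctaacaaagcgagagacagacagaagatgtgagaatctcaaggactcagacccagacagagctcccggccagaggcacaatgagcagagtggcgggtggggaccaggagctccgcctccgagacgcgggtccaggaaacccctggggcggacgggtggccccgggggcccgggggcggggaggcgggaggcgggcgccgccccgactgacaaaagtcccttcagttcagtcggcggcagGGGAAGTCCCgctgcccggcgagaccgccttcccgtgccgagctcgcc
Nfkbie, chr17:45555450-45555749, plus strand: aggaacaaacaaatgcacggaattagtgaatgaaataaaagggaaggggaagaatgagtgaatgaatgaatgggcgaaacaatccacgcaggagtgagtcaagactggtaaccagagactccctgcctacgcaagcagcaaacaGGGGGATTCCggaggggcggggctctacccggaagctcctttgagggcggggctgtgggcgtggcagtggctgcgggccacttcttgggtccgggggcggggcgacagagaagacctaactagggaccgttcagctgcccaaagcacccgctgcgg
Nfkb2, the first of 3 annotated starts, chr19:46304487-46304786, plus strand: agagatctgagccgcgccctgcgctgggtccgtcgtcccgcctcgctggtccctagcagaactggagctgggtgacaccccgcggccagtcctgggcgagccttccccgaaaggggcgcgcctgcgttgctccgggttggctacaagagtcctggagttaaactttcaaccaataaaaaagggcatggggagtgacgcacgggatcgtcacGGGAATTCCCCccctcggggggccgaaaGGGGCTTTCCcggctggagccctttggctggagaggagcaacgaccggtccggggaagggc
Nfkbib, chr7:28766595-28766894, minus strand: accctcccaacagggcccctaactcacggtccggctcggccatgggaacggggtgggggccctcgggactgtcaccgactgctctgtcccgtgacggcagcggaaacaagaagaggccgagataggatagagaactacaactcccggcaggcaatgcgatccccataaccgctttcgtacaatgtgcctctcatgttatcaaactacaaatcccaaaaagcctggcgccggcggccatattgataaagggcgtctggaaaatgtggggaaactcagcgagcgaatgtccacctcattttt
Rela, chr19:5637291-5637590, plus strand: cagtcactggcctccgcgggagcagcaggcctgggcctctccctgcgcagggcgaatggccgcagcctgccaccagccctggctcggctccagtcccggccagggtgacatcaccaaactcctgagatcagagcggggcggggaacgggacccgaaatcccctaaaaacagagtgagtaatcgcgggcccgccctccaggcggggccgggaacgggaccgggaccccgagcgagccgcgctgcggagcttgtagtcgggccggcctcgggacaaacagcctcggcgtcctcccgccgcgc

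The Nfkbia window held 1 match, GGAAATTCCC, on the antisense strand and beginning 29 bases before the start. The Tnfaip3 window held 2, of which GGAAATCCCC began 12 bases before the start and GGGACACCCC 125 bases before it. The Bcl3 window held 1, GGGAAGTCCC, which reads as a match on both strands and lies just after the start. The Nfkbie window held 1, GGGGGATTCC, 106 bases before the start. In the Nfkb2 window there were 3 matches, of which GGGAATTCCC and GGAATTCCCC overlap by all but 1 base and GGGGCTTTCC began 11 bases before the start. The windows of the 2 other Nfkb2 starts held 2 and 1, but these windows overlap and share the same GGGACTTTCC site. The windows of Nfkbib and Rela held none, nor did that of the other Tnfaip3 start, which says only that these letters are not in those windows. Of all 32851 RefSeq promoter windows of this length, 8.46% held at least 1 match. The core of the antioxidant response element to which NRF2 binds, searched as TGACNNNGC on both strands, occurred in the Nfkbia window, as TGACCCCGC 13 bases before the start and not overlapping the kB match, and in none of the other windows of these genes, against 12.4% of all windows. These matches are descriptions of sequence, and no binding was measured.

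**Figure D1:**
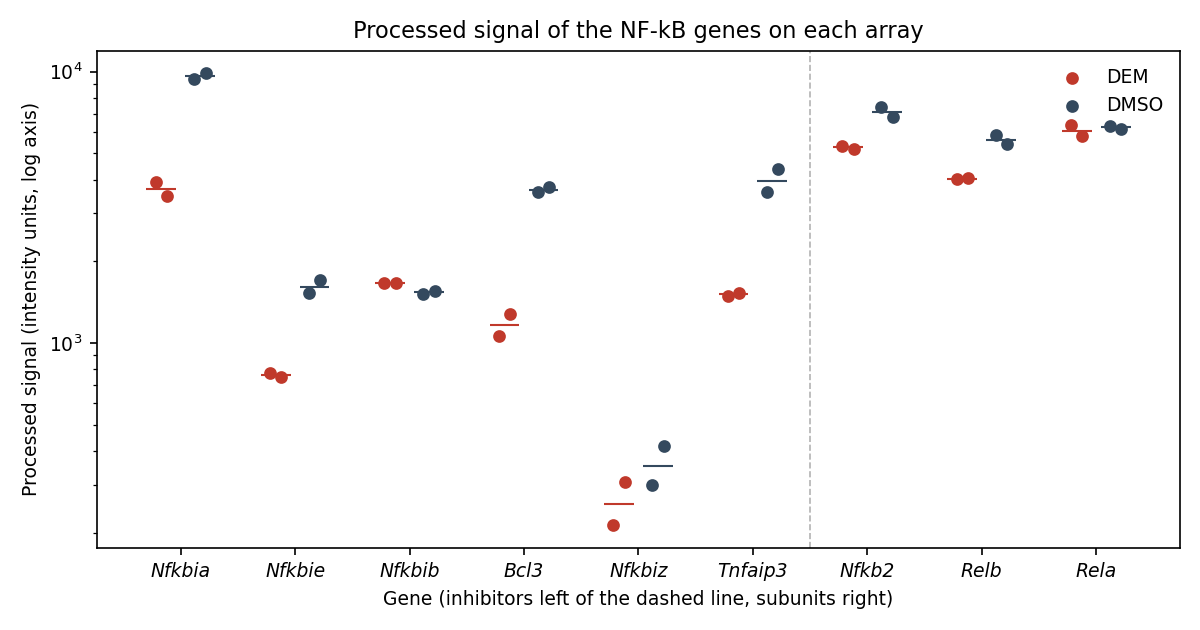
Processed signal (intensity units, log axis) of the 9 NF-kB genes with a probe; each point is 1 array (DEM red, DMSO dark blue) and each line the geometric mean of 2 arrays. Signals of Nfkbia, Nfkbie, Bcl3 and Tnfaip3 on the DEM arrays lie well below those on the DMSO arrays, those of Nfkb2 and Relb lie a little below, and those of Rela and Nfkbiz interleave.

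Nfkbia encodes IkB-alpha, the inhibitor that binds mainly dimers containing RelA and is remade quickly after each round of activation. Its processed signal, an intensity after the scanner software's background subtraction, was 3920 and 3470 on the DEM arrays, against 9410 and 9850 on the DMSO arrays. Both DEM arrays were below both DMSO arrays by a gap far wider than the distance between replicates. After each array was scaled to its 75th percentile, Nfkbia was 2.69-fold lower in DEM, a log2 change of −1.43 ± 0.10 (SE, limma adjusted p = 0.0325). That change ranks 80 from the lowest among the 15537 genes tested.

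Nfkbie encodes IkB-epsilon, another cytoplasmic inhibitor. It gave 775 and 748 intensity units in DEM, against 1530 and 1700 in DMSO. The groups did not overlap, and the DEM arrays were close to each other. The scaled change was 2.18-fold lower, or −1.12 ± 0.11 on the log2 scale (limma adjusted p = 0.0431). Nfkbib, which encodes IkB-beta, a slower acting inhibitor than IkB-alpha, had signals of 1660 and 1660 in DEM and 1510 and 1560 in DMSO. Before scaling its DEM arrays were the higher ones, and after scaling the groups overlapped. Its log2 change was 0.07, with a 95% interval from −0.17 to 0.31 (limma adjusted p = 0.733). The 3 cytoplasmic IkB genes therefore did not share one response: the interval of Nfkbib lay wholly above those of Nfkbia and Nfkbie, which ran from −1.70 to −1.16 and from −1.41 to −0.84.

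Bcl3 encodes a nuclear IkB protein that binds homodimers of p50 or p52 on DNA and can act as a coactivator or a corepressor. Its signal was 1060 and 1280 in DEM, against 3590 and 3760 in DMSO. The groups were far apart, and the DEM replicates differed from each other more than the DMSO replicates did. Bcl3 was 3.25-fold lower in DEM (log2 change −1.70 ± 0.14, limma adjusted p = 0.0351), the lowest of the 9 changes. Nfkbiz encodes IkB-zeta, a nuclear IkB protein that cells need for the induction of some secondary NF-kB targets such as Il6. Its signals were 213 and 307 in DEM and 300 and 416 in DMSO, so the groups overlapped. The log2 change was −0.51 with a 95% interval from −1.25 to 0.24 (limma adjusted p = 0.409), wide enough to hold both 0 and the change of Nfkbie.

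Tnfaip3 encodes A20, which edits ubiquitin chains on signalling proteins upstream of IKK and so limits activation. It had 1490 and 1530 intensity units in DEM, against 3590 and 4370 in DMSO. The DEM arrays were close to each other, and the DMSO arrays were further apart but both above them. The scaled change was 2.70-fold lower (log2 change −1.43 ± 0.14, limma adjusted p = 0.0436). On this scale Tnfaip3 and Nfkbia rank next to each other among all genes tested, at 79 and 80 from the lowest.

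**Figure D2:**
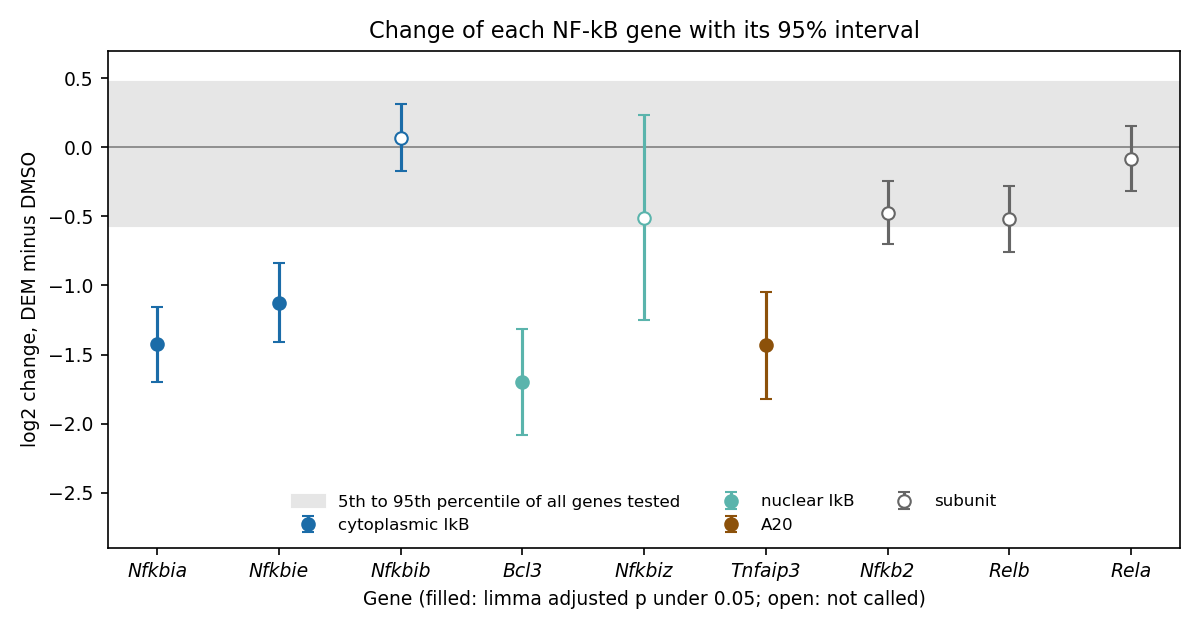
Change of each gene on the log2 scale, DEM minus DMSO, with the 95% interval of the limma fit (n = 2 arrays per group); filled points passed an adjusted p under 0.05, open points did not, and the grey band holds the 5th to 95th percentile of all 15537 genes tested, −0.57 to 0.47. Nfkbia, Nfkbie, Bcl3 and Tnfaip3 lie below the band with their whole intervals, and the point values of the 3 subunits, Nfkbib and Nfkbiz lie inside it.

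Among the subunits, Relb encodes the partner of p52 in the noncanonical pathway. It gave 4010 and 4060 intensity units in DEM, against 5840 and 5400 in DMSO. Its DEM arrays were lower than its DMSO arrays without overlap, at a log2 change of −0.52 ± 0.09 that did not pass (95% interval −0.75 to −0.28, unadjusted p = 0.00312, limma adjusted p = 0.0842). Nfkb2, which encodes the p100 precursor of p52, itself an inhibitor until it is processed, had 5340 and 5190 in DEM, against 7390 and 6820 in DMSO. Here too the DEM arrays were the lower ones, and the log2 change of −0.47 ± 0.08 did not pass (95% interval −0.70 to −0.24, unadjusted p = 0.00391, limma adjusted p = 0.0909). These dimerisation partners thus had nearly the same change, and each interval lay above that of Nfkbia.

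Rela encodes p65, which carries the transactivation domain of the main dimer. Its brighter probe gave 6340 and 5800 in DEM, against 6300 and 6160 in DMSO, with signals that interleaved, although after scaling both DEM values were slightly below both DMSO values. The log2 change was −0.08 with a 95% interval from −0.31 to 0.15 (limma adjusted p = 0.679). A second Rela probe is spotted 10 times on each array and serves as a check of spot-to-spot error. Its 10 spots ran from 653 to 701 and from 585 to 637 on the DEM arrays, and from 656 to 746 and from 612 to 686 on the DMSO arrays, with coefficients of variation of 2.40%, 2.57%, 4.10% and 3.50%. Fitted among all 21140 probes that passed the filter, that probe gave a log2 change of −0.11 ± 0.10 (limma adjusted p = 0.604). Both Rela probes thus had changes near 0. The other genes had 1 probe each, so no second probe bears on them.

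In counts, 0 of the 9 genes rose, 4 fell and 5 were not called, where 0.508% of all genes were called lower. The scaled values did not overlap and were lower in DEM for 7 of the 9, Nfkbib and Nfkbiz being the exceptions, against 25.6% of all genes tested with that pattern. These counts rest on few arrays. With 1 DMSO array left out limma called 0 of all genes (by unadjusted p below 0.05, 983 were higher and 1130 lower without DMSO replicate 1, 844 and 1171 without DMSO replicate 2), and with either DEM array left out only Bcl3 and Nfkbia of the 9 were called. Under quantile normalization only Nfkbia was called, and with no filter on dim probes none was. The log2 changes without 1 array ran from −1.49 to −1.36 for Nfkbia, from −1.86 to −1.54 for Bcl3, from −1.60 to −1.26 for Tnfaip3 and from −1.23 to −1.02 for Nfkbie.

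**Figure D3:**
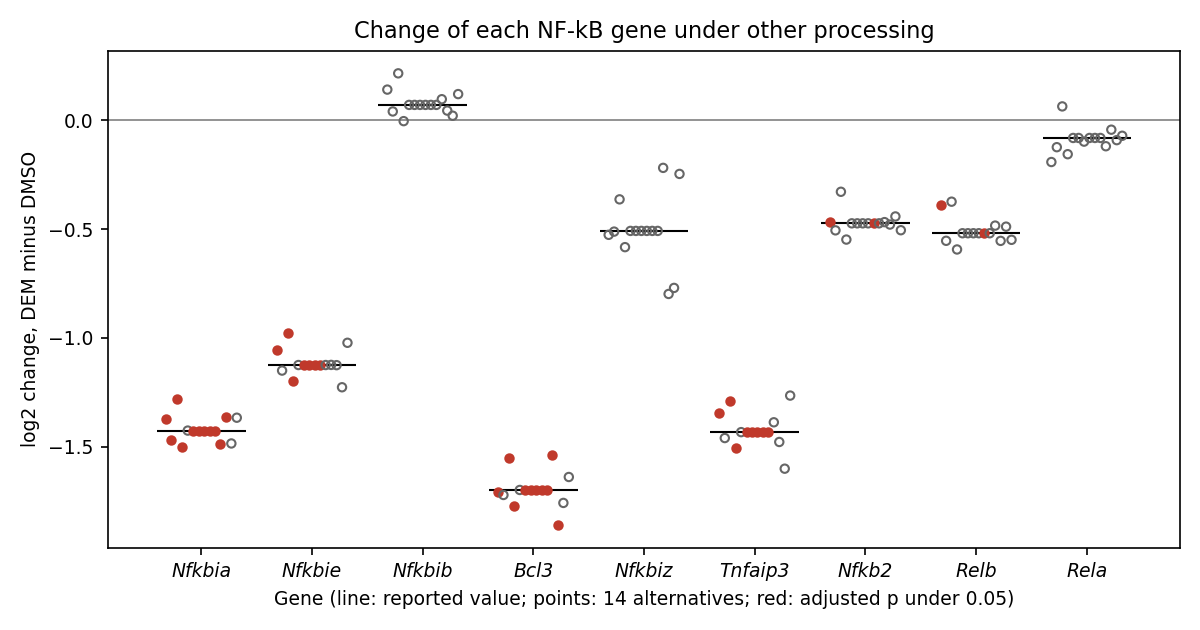
Log2 change, DEM minus DMSO, of each gene as reported (line) and under 14 other ways of processing the arrays or leaving 1 out (points; red: limma adjusted p under 0.05). Nfkbia, Nfkbie, Bcl3 and Tnfaip3 stay at or below −0.98 under all 14 while their calls come and go, and Nfkbib and Rela cross 0 once each.

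Inhibitors were contrasted with subunits inside each array, by subtracting the log2 signal of a subunit from that of an inhibitor, which removes any scaling of the array. Of the 18 pairs, the inhibitor was lower relative to the subunit after DEM in 14, and in 12 of these the DEM arrays lay below both DMSO arrays. Those 12 are the pairs of Nfkbia, Nfkbie, Bcl3 and Tnfaip3, the inhibitors already called. The pairs reuse the same genes and arrays, so they are not 18 separate observations. Nfkbia relative to Rela was −1.32 and −1.37 on the DEM arrays, against −0.05 and 0.05 on the DMSO arrays, each given relative to the DMSO mean. That difference of −1.35 ± 0.05 (SE) was many times the spread between replicates. Against Relb and Nfkb2 the differences for Nfkbia were smaller, at −0.91 ± 0.13 and −0.95 ± 0.11. Bcl3 relative to Rela differed by −1.62 ± 0.21, Tnfaip3 relative to Rela by −1.35 ± 0.18 and Nfkbie relative to Rela by −1.04 ± 0.10. Nfkbib went the other way, at 0.59 ± 0.08 relative to Relb and 0.54 ± 0.08 relative to Nfkb2, since these subunits were the lower ones in DEM. Nfkbiz relative to any subunit overlapped between the groups. An exact permutation test (two-sided) of 2 against 2 arrays cannot go below 0.333, which 15 of the 18 pairs reached (0.4 after Benjamini-Hochberg adjustment over the 18), so no pair could pass 0.05 by this test.

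**Figure D4:**
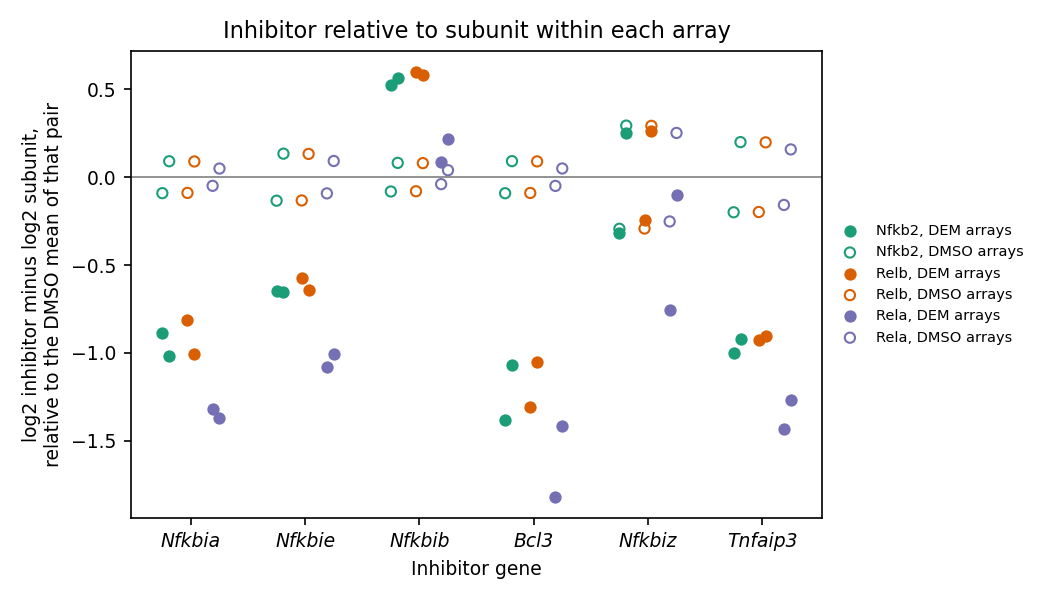
Log2 signal of each inhibitor minus that of a subunit within each array, relative to the mean of the DMSO arrays for that pair; filled points are DEM arrays and open points DMSO arrays, coloured by subunit. For Nfkbia, Nfkbie, Bcl3 and Tnfaip3 the filled points lie below the open ones for all 3 subunits, for Nfkbib they lie above them, and for Nfkbiz they interleave.

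Taken per array, the median inhibitor lay at −1.24 and −1.26 relative to the DMSO mean on the DEM arrays, against −0.08 and 0.08 on the DMSO arrays. The median subunit was at −0.48 and −0.47 on the DEM arrays, against 0.03 and −0.03 on the DMSO arrays. The difference of the median changes of inhibitors and subunits was −0.80 on the log2 scale, and it ran from −0.91 to −0.64 when arrays were left out in turn. No p is given for it, because the genes were grouped with earlier results of these data known.

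Genes that act around these members were taken from lists of textbook pathway genes. The lists were chosen with earlier results of these data known. Counts and medians over them describe the listed genes and are not a test. Of the NF-kB target genes outside the 10, 21 of 30 were tested, 4 fell, 0 rose and 17 were not called, with a median log2 change of −0.44 against −0.01 over all genes. The 4 were chemokine genes: Ccl7 (log2 change −2.18 ± 0.19), Cxcl10 (−1.64 ± 0.12), Cxcl1 (−1.39 ± 0.15) and Ccl2 (−1.14 ± 0.09), with limma adjusted p between 0.0325 and 0.0474. Their direction held under 14 alternatives, of which Ccl7 passed in 10, Cxcl10 in 11, Cxcl1 in 8 and Ccl2 in 9. Quantile normalization ended the calls of Ccl7 and Cxcl1, leaving out either DEM array that of Ccl2, leaving out DEM replicate 2 that of Cxcl1, and leaving out either DMSO array or the filter on dim probes all 4, and the change of Cxcl1 was −0.70 under normexp background correction. Ccl2, which draws monocytes, had 40258 and 36334 intensity units in DEM, against 84570 and 78771 in DMSO. After their values were seen, 2 further targets were singled out. Vcam1, an adhesion molecule, had 2520 and 2710 in DEM, against 4630 and 4440 in DMSO (−0.84 ± 0.10, limma adjusted p = 0.0529). That is its brightest probe, and with the probes of the gene averaged the change was smaller, at −0.68. Il6, a cytokine that drives the acute phase response, had 95.4 and 116 in DEM, against 232 and 340 in DMSO (−1.46 ± 0.25, limma adjusted p = 0.0842). Vcam1 passed in 4 of 14 alternatives and Il6 in 6. By unadjusted p below 0.05, 12 of the 21 targets were lower and 1 was higher, where 10.2% of all genes tested were lower and 9.02% higher. The 1 higher was Lcn2 (0.28 ± 0.09), and Sod2, Cflar and Csf1 had changes of 0.11, 0.11 and 0.04. The arrays did not overlap and were lower in DEM for 15 and higher for 2, against 25.6% and 24.9% of all genes tested. Changes lay below 0 for 17 and above it for 4, where 7955 of all genes lay below 0 and 7582 above it. Csf2 is in the lower counts by unadjusted p, by overlap and by sign. It was well above background on the DMSO arrays alone (5.83 and 3.38 intensity units in DEM, against 17.0 and 17.7 in DMSO). The filter on dim probes thus kept it only through the group where it was high.

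Upstream of the IkB proteins, 0 of 11 genes of the IKK complex and its kinases were called, and the median change was −0.02. With an unadjusted p below 0.05, 2 were higher and 1 lower, where 9.02% of all genes tested were higher and 10.2% lower. Ikbke, which encodes the IKK-related kinase IKK-epsilon, had the largest absolute change of these 11, with 279 and 211 intensity units in DEM, against 528 and 599 in DMSO (−1.25 ± 0.16, limma adjusted p = 0.0594). Ikbkg, singled out after its values were seen, encodes the regulatory subunit NEMO of the IKK complex and had 1510 and 1750 in DEM, against 760 and 806 in DMSO (1.01 ± 0.13, limma adjusted p = 0.0581). Ikbke and Ikbkg thus had opposite changes without overlap between groups. Each sat just above the threshold, which each passed in 5 of 14 alternatives, among them normexp, median scaling and spike-in scaling. The genes of the catalytic subunits, Chuk and Ikbkb, had changes of −0.07 and −0.21.

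Among receptors and adaptors, 25 of 26 were tested and 0 were called (median −0.10). With an unadjusted p below 0.05, 5 were higher and 5 lower. For this list and those that follow, 9.02% of all genes tested were higher and 10.2% lower by that p. Tlr3, 1 of the 5 lower, was well above background on the DMSO arrays alone (14.4 and 11.2 in DEM, against 22.3 and 21 in DMSO). The filter thus kept it only through the group where it was high. Il1r1, the interleukin 1 receptor, had 3.15 and 14.6 intensity units in DEM, not well above background on either array, against 14.8 and 84.4 in DMSO (limma adjusted p = 0.355). DMSO replicate 1 lay beside DEM replicate 2, so the distance between the groups rested on DMSO replicate 2 and DEM replicate 1. The log2 change of Il1r1 was −2.42 with all 4 arrays, −1.14 without DMSO replicate 2 and −1.29 without DEM replicate 1. Il1r1, too, was kept by the filter only through the group where it was high. Birc3, an inhibitor of apoptosis and a known NF-kB target, was singled out after its values were seen, with 652 and 611 in DEM, against 999 and 1060 in DMSO (−0.75 ± 0.10, limma adjusted p = 0.0581), and it passed in 3 of 14 alternatives. Of the genes that work with A20 on ubiquitin chains, 10 of 12 were tested and 0 were called (1 higher and 1 lower with an unadjusted p below 0.05, median −0.01). Tnip1, an A20-binding protein, had the largest absolute change of them at −0.49 ± 0.09 (limma adjusted p = 0.0926). The machinery that ubiquitinates IkB proteins had 10 of 10 tested and 0 called (0 with an unadjusted p below 0.05), with changes from −0.10 to 0.19 for Ube2d2a, an E2 enzyme. Of 7 other Rel and IkB relatives, 5 were tested and 0 called (1 higher with an unadjusted p below 0.05). Nkiras1, a small GTPase that binds IkB-beta, had the largest change of them at 0.46 ± 0.13 (limma adjusted p = 0.183), and Rel and Nfkbid were well above background on fewer than 2 arrays and were not tested.

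**Figure D5:**
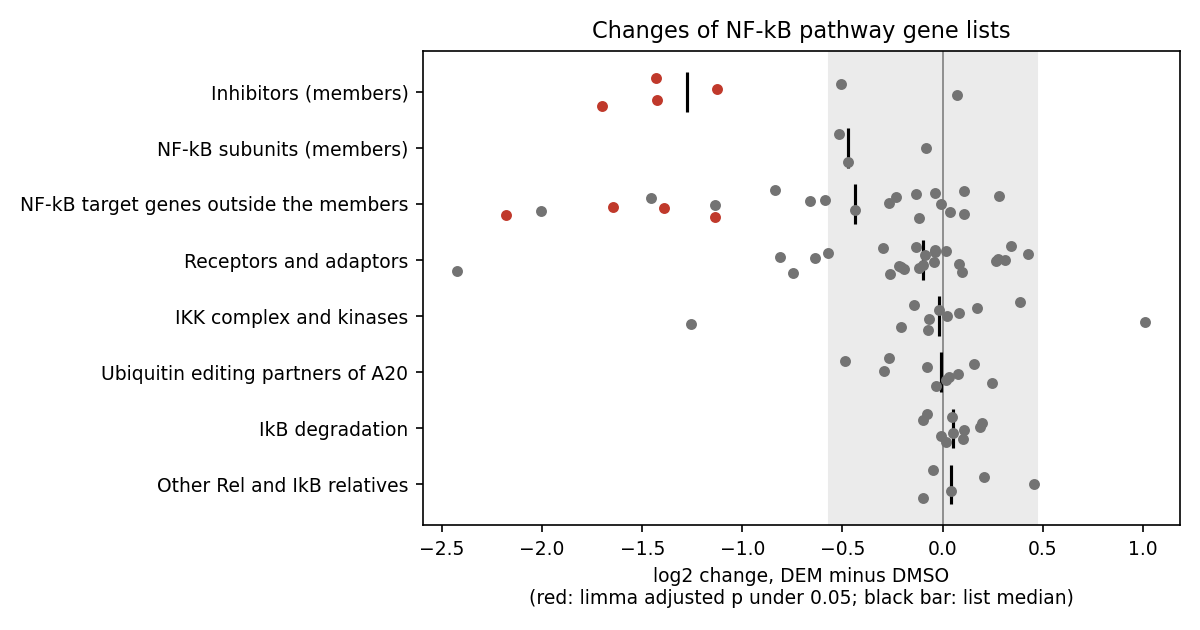
Log2 change, DEM minus DMSO, of each tested gene in the member groups and in 6 lists of pathway genes; each point is 1 gene (red: limma adjusted p under 0.05), black bars are list medians and the grey band holds the 5th to 95th percentile of all genes tested. The called genes are 4 inhibitors and 4 target genes, and the lists of kinases, adaptors and ubiquitin enzymes centre near 0.

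The 3 genes outside the members whose pattern over the 4 arrays lay closest to that of Nfkbia, among 10531 named genes well above background on all arrays, were Tgtp1, an interferon-inducible GTPase, Cxcl1 and Plpp3, a lipid phosphatase. Likeness was the Euclidean distance between log2 values centred on each gene's own mean, and it was 0.17, 0.17 and 0.19. Tgtp1 had 51 and 47.1 intensity units in DEM, against 111 and 117 in DMSO. Plpp3 had 461 and 432 in DEM, against 1010 and 1050 in DMSO. Over so few arrays many genes with a like change have a like pattern. Under normexp background correction the log2 changes were −0.74 for Tgtp1, −0.70 for Cxcl1 and −1.08 for Plpp3, against −1.37 for Nfkbia. The likeness of these genes to Nfkbia thus depends on the background correction. Tgtp1 and Plpp3 each passed in 9 of 14 alternatives.

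The scanner software marked 20744 to 21659 of 41174 probes per array as well above background, and 0 as saturated. Arrays of 1 group correlated at 0.994 across genes in DEM and in DMSO, and pairs of a DEM and a DMSO array at 0.989 to 0.991, values that are across genes and not over independent replicates. In all, 111 genes were called higher and 79 lower, so that rises were 58.4% of the calls. Scaling to the median signal put the all-gene median at 0.14 and gave 404 and 163 calls (71.3% rises), and scaling on spike-in probes gave 198 and 374 (34.6%), with a median of −0.08. The same 4 inhibitors were called under both. With spike-in scaling, though, the p-values of the named genes followed the size of their changes alone, whatever the spread of their arrays. A call there is a cut on the size of the change.

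Of 12 hepatocyte and hepatoma markers with a probe, 8 were well above background on all arrays, among them Alb, Afp, Krt8 and Krt18, while Ttr, Apoa1 and Hnf4a were not well above background on any. Summed over each list and relative to the 75th percentile of the array, these markers came to 839 and 845 in DEM, against 849 and 804 in DMSO. Without the keratins Krt8 and Krt18, left out after values were seen, the other 10 came to 180 and 182 in DEM, against 155 and 143 in DMSO. Of the 9 markers tested 0 passed, and their median log2 change was 0.19. By unadjusted p below 0.05 there were 4 higher and 0 lower, where 9.02% of all genes tested were higher and 10.2% lower. Those 4 were Apob (52.7 and 119 in DEM, against 14.4 and 3.46 in DMSO), Apoe (1826 and 1991 in DEM, against 1268 and 1249 in DMSO), Foxa2 (12429 and 11919 in DEM, against 8864 and 8455 in DMSO) and Afp (69579 and 68761 in DEM, against 58228 and 51953 in DMSO). Apob was well above background on both DEM arrays and on only 1 DMSO array. Of 9 leukocyte markers with a probe, Csf1r, Cd14 and Cd3e were well above background on all arrays and Adgre1, Itgam, Tyrobp and Cd79a on none, and Ptprc, which marks all leukocytes, was on 1 DMSO array alone. Their sums were 6.09 and 4.76 in DEM, against 5.89 and 5.34 in DMSO. Of the 3 tested 0 passed. By unadjusted p below 0.05 (limma) 0 were higher and 2 lower, Cd14 (log2 change −0.45) and Cd3e (−0.30). Csf1r had a change of 0.42, so Csf1r and Cd14 moved in opposite directions within the sum. Fibroblast and stellate markers, 6 of 8 of which were well above background on all arrays, summed to 119 and 135 in DEM, against 139 and 148 in DMSO. Of the 6 tested 0 passed, and by unadjusted p below 0.05 (limma) 0 were higher and 1 lower, Dcn (−0.26). The part of any of these markers in the changes of the NF-kB genes was not tested. Of 6 endothelial markers Lyve1 and Stab2 were well above background, at sums of 0.166 and 0.165 in DEM, against 0.183 and 0.172 in DMSO.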

How the data were processed

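Values are the processed signal of each spot, an intensity that per the file headers comes from Agilent Feature Extraction 10.7.3.1 after background subtraction. The authors' deposited value table held the same intensity (all 45018 spots within 1% on each array, column medians 13.8 to 16.2), so its scale is linear and uncentred. Log2 signals were scaled to the 75th percentile of non-control spots, flagged outlier spots were dropped, and spots of a probe were averaged. Probes were named through RefSeq transcripts (GRCm38.p6, names alone: 26690 of 41174 probes received 1 symbol), and a gene is its brightest probe among those well above background on at least 2 arrays. Limma 3.58.1 in R 4.3.3 (lmFit, eBayes) compared DEM with DMSO over 15537 genes, with Benjamini-Hochberg adjustment at 0.05, and the fit was tested on simulated data. The number of arrays limits precision. The members and lists were chosen with earlier results of these data known. All members are named, with called list genes or else the largest change of a list. Alternatives were the value table, background correction, scaling, filter, probe summary, variance trend, replicate block and leaving out arrays. Normexp used median spot signals, in place of the mean.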

Additional observations from a re-analysis of the deposited data

How the results depend on the processing

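The deposited value table gave the reported values again, since it holds the same intensities, and is not counted. Over the other 14 alternatives the changes of Nfkbia, Nfkbie, Bcl3 and Tnfaip3 kept their direction, from −1.50 to −1.28, −1.23 to −0.98, −1.86 to −1.54 and −1.60 to −1.26, with limma adjusted p up to 0.211, 0.226, 0.234 and 0.212, and they passed in 11, 7, 10 and 8 of them. Nfkb2 and Relb passed under normexp and with an intensity trend. Rela turned to 0.0647 under median scaling and Nfkbib to −0.00301 under spike-in scaling. Called members numbered 1 (Nfkbia) under quantile normalization, 0 without a filter on dim probes and 0 to 2 with an array left out. Genes called higher and lower were 437 and 370 under normexp, 61 and 32 under quantile normalization, 404 and 163 under median scaling, 198 and 374 under spike-in scaling, 230 and 196 with probes well above background on all arrays, 415 and 311 with an intensity trend, 0 and 0 without a filter (1246 and 1919 at an unadjusted p under 0.05, limma), and 0 to 69 and 0 to 52 with an array left out (without DMSO replicate 1, 983 and 1130 at an unadjusted p under 0.05, and without DMSO replicate 2, 844 and 1171). Inhibitors minus subunits ran from −0.91 to −0.64 with an array left out. Replicate numbers were not shown to pair the samples (deviations from group means correlated at 0.14 across genes, from 2 pairs). With the replicate number as a block 74 genes were called higher and 69 lower, of which 3 were members, Nfkbie being lost (adjusted p = 0.0533), Cxcl1 was lost (0.0611), and Il1r1 (0.0457) and Il6 (0.0488) passed. Il1r1 also passed under spike-in scaling, was −0.61 under normexp and ran from −3.71 to −1.14 with an array left out. The counts of alternatives passed include spike-in scaling, where a call is a cut on the size of the change. With an array left out the lone sample of a group is assumed to vary like the others. Il1r1 was not well above background on either DEM array, and the filter kept it only through the DMSO arrays. Its passes and the size of its change are therefore not read as a result.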
